A study of Mus musculus with 8 samples.

Results

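The protamines and transition proteins are the small proteins that package sperm DNA, and 5 of their genes were measured here: Prm1, Prm2, Prm3, Tnp1 and Tnp2. They were chosen by symbol, and the array carried 8 probe sets for these 5 of the 20664 genes it names. The RNA came from whole testis of mice on postnatal day 23 and was hybridised to Affymetrix Mouse430_2 arrays, 8 in all. Of these, 5 were labelled wildtype (replicates 1, 2, 4, 6 and 7) and 3 were labelled Ctcfl mutant (replicates 3, 5 and 8). Ctcfl encodes a testis paralog of the chromatin factor CTCF, and the comparison asks which transcripts differ when it is missing. According to the study the mutants were homozygous for the Ctcfl del allele and the controls were heterozygous del/+ littermates, although the labels call them wildtype. On that description every animal carried at least one del allele, a deletion in all cells with a GFP coding sequence joined in frame, on a C57/Bl6 background. The study describes this age as earlier than the onset of degeneration in mutant testes. No level of Ctcfl was analysed here, and the labels of the groups were therefore not checked against it. Nothing in the labels says that each array came from a separate animal, so p-values measure the spread between these samples.

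In the testis, spermatogonia give rise to spermatocytes, and after meiosis these become spermatids. As a spermatid elongates, most of its histones are removed, transition proteins take their place for a time, and protamines then replace the transition proteins and compact the chromatin of the sperm head. The mRNAs are made in round spermatids, held in storage and translated later, so in bulk testis RNA they mark spermatids. Prm1 encodes protamine 1. Prm2 encodes protamine 2, which is made as a precursor and trimmed. Tnp1 and Tnp2 encode the transition proteins. Prm3 lies in the same gene cluster as Prm1, Prm2 and Tnp2 but encodes an acidic protein that is found in the cytoplasm.

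The sequences just upstream of the 5 genes are shown because members with a shared promoter element can be set beside members with a shared profile. In the RefSeq annotation of GRCm38.p6, 4 members lie on the minus strand of chromosome 16 in the order of transcription Prm1, Prm2, Prm3, Tnp2. Prm1 starts 4718 bases from Prm2, Prm2 starts 1191 bases from Prm3 and Prm3 starts 2259 bases from Tnp2, so that 8168 bases separate the starts of Prm1 and Tnp2. Tnp1 is on the minus strand of chromosome 1. The 250 bases upstream of each start site are given 5′ to 3′ on the coding strand, from chr16:10796824-10797073 for Prm1, chr16:10792106-10792355 for Prm2, chr16:10790915-10791164 for Prm3, chr16:10788656-10788905 for Tnp2 and chr1:73015900-73016149 for Tnp1. Capitals mark matches to the motifs that were searched.
Prm1: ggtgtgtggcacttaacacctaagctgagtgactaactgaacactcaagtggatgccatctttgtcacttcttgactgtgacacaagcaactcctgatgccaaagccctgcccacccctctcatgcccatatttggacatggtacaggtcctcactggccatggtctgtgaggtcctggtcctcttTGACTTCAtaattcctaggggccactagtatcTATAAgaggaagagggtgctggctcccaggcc
Prm2: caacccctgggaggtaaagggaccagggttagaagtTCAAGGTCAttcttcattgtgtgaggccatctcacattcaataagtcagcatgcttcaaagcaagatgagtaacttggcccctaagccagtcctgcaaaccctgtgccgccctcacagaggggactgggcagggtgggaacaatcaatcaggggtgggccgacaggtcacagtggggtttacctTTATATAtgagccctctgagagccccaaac
Prm3: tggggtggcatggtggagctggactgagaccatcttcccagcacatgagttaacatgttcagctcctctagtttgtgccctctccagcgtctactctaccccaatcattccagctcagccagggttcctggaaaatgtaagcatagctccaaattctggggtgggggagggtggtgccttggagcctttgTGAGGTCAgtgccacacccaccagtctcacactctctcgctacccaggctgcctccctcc
Tnp2: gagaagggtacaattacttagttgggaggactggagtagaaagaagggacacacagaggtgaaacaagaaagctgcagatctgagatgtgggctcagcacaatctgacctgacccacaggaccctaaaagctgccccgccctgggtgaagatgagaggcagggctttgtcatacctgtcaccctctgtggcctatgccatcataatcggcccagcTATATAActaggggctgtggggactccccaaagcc
Tnp1: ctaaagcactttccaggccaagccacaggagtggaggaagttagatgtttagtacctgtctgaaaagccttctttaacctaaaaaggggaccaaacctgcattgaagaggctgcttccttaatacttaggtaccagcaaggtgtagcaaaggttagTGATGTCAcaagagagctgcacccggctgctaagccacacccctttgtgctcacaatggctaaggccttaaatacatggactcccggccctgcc

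The motifs were sought on both strands of these windows. A CRE-like element, TGANNTCA, resembles the site of CREM, a transcription factor that round spermatids need. It was found in Prm1 as TGACTTCA at -64 to -57 from the start, in Prm3 as TGAGGTCA at -60 to -53 and in Tnp1 as TGATGTCA at -94 to -87. It was not found in the windows of Prm2 and Tnp2. Of 32851 promoter windows of this length, 3919 (11.9%) held it. The full CRE, TGACGTCA, which is contained in the CRE-like form, was in none of the 5 and in 1.55% of all windows. The extended half-site TCAAGGTCA, bound by the germ cell nuclear receptor NR6A1, was in Prm2 at -214 to -206 and in 0.387% of all windows. A TATA element of the form TATAA was in Prm1 at -32 to -28, in Tnp2 at -33 to -29 and, on the other strand, in Prm2 at -30 to -26, against 22.8% of all windows. The form TATATA, which overlaps it, was in Prm2 at -29 to -24 and in Tnp2 at -35 to -30, against 5.25%. These are matches of letters and not sites shown to be used.

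The levels of the 5 members ranged widely over the arrays, by 69.6-fold on one Prm1 probe set, and the same pair of arrays, one of each genotype, was at the top each time. Wildtype replicate 7 was the highest array and mutant replicate 8 the second highest for all 8 probe sets. No member passed the test between the genotypes. Levels are given on the log2 scale as deposited, after robust multi-array averaging (RMA), and the level of one gene is not compared with that of another, because probe sets differ in brightness.

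**Figure D1:**
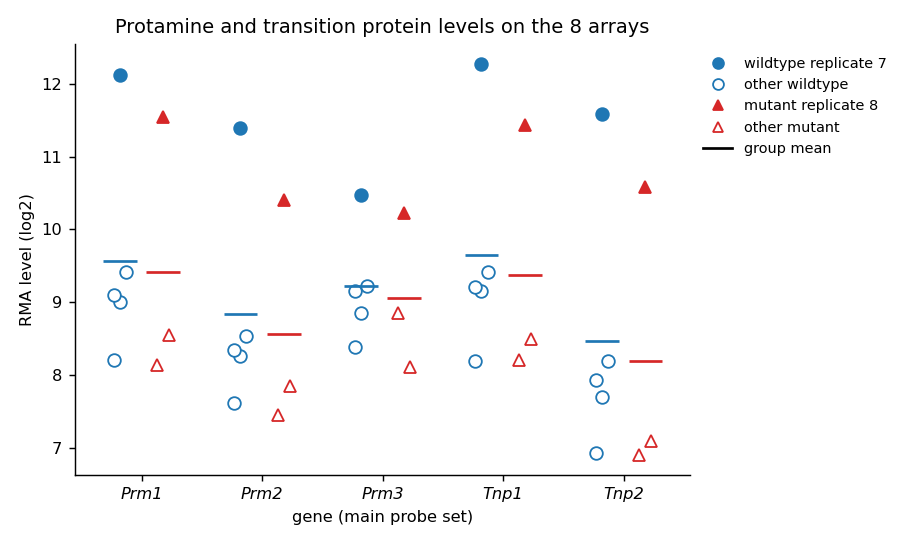
Log2 level (y axis) of the main probe set of each gene (x axis) on each array. Circles are wildtype arrays, triangles mutant arrays, filled symbols wildtype replicate 7 and mutant replicate 8, and short lines the group means. For each gene both filled symbols lie above all open ones, and the open symbols of the genotypes overlap in height.

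Prm1, measured by the probe set 1415955_x_at, stood at 8.20, 9.0, 9.41, 9.10 and 12.12 on wildtype replicates 1, 2, 4, 6 and 7, and at 8.55, 8.14 and 11.55 on mutant replicates 3, 5 and 8. Both genotypes thus held low arrays and one high array, and the groups overlapped. Averaged over the group, wildtype stood at 9.57 ± 1.5 (SD, n = 5) and mutant at 9.41 ± 1.86 (SD, n = 3). The log2 difference, mutant minus wildtype, was -0.15 with an SE of 0.93 and a 95% interval of -2.24 to 1.93 (limma, adjusted p = 1.0 over all 45101 probe sets). The exact permutation test, two-sided and over all splits of the arrays, gave p = 0.786, where 0.0357 is the smallest value that this design allows. From the lowest to the highest array the level spanned 3.98, or 15.8-fold.

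Prm1 had 2 further probe sets, and both showed a wider range. The probe set 1437054_x_at read 6.50, 7.82, 8.30, 7.70 and 11.99 in wildtype and 7.17, 5.87 and 10.49 in mutant, in the same order of replicates. Its span of 6.12 (69.6-fold) was the widest of the whole array. The probe set 1439379_x_at read 6.51, 7.82, 8.31, 7.75 and 11.91 in wildtype and 7.06, 6.03 and 10.47 in mutant, and its span of 5.88 (58.8-fold) ranked 2. The genotype differences were -0.62 (SE 1.25) and -0.60 (SE 1.22), with groups that overlapped. All 3 Prm1 probe sets carry the suffix of probes that may bind other transcripts too.

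Prm2 stood at 7.62, 8.27, 8.53, 8.34 and 11.40 in wildtype and at 7.85, 7.44 and 10.40 in mutant. Wildtype replicate 1 and mutant replicate 5 were its lowest arrays, as they were for the main probe set of Prm1. The means of 8.83 ± 1.48 (SD, n = 5) and 8.56 ± 1.60 (SD, n = 3) differed by -0.27 (SE 0.87, 95% interval -2.21 to 1.68; exact permutation p = 0.786). The span was 3.96 (15.5-fold).

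Tnp1 stood at 8.19, 9.16, 9.41, 9.21 and 12.28 in wildtype and at 8.50, 8.20 and 11.44 in mutant. Its means of 9.65 ± 1.54 (SD, n = 5) and 9.38 ± 1.79 (SD, n = 3) differed by -0.27 (SE 0.93, 95% interval -2.36 to 1.82; exact permutation p = 0.821), and the groups overlapped. The span was 4.09 (17.1-fold). A second Tnp1 probe set, 1438632_x_at, was dim throughout, at 4.51, 4.69, 5.05, 4.74 and 5.96 in wildtype and 4.54, 4.48 and 5.25 in mutant. It kept the same pair on top over a narrower span of 1.48 (2.79-fold).

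Tnp2 stood at 6.93, 7.70, 8.20, 7.93 and 11.59 in wildtype and at 7.09, 6.90 and 10.59 in mutant. The means of 8.47 ± 1.81 (SD, n = 5) and 8.19 ± 2.08 (SD, n = 3) differed by -0.28 (SE 1.09, 95% interval -2.71 to 2.16; exact permutation p = 0.786). Of the main probe sets of the members it had the widest span, 4.70 (25.9-fold), which ranked 3 on the array. Its probe set carries a suffix for probes shared by several transcripts.

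Prm3 ranged less than the main probe sets of the other four. It stood at 8.38, 8.85, 9.22, 9.15 and 10.48 in wildtype and at 8.11, 8.85 and 10.22 in mutant, so that the lowest array was mutant replicate 3 and not mutant replicate 5 or wildtype replicate 1. The means of 9.22 ± 0.78 (SD, n = 5) and 9.06 ± 1.07 (SD, n = 3) differed by -0.15 (SE 0.51, 95% interval -1.29 to 0.99; exact permutation p = 0.750). The span was 2.36 (5.14-fold), and 119 probe sets of the array (0.264%) spanned at least as much. The median span of all probe sets was 0.38.

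For all 8 member probe sets the genotype difference was below 0 and the limma adjusted p was 1.0. In this comparison 0 of the 8 were called at an adjusted p of 0.05, against 0 of 45101 over the array (0%). At an unadjusted p of 0.05, limma called 1564 probe sets (3.47%), none of them a member, and 1216 (2.7%) had groups that did not overlap, again with no member. The sign rested on single arrays. For the main probe sets the difference was above 0 without wildtype replicate 7 (0.16 to 0.50), without mutant replicate 3 (0.092 to 0.32) and, except for Prm3, without mutant replicate 5 (0.29 to 0.48). Over all probe sets 48.5% were lower in mutant. In RNA of whole testis, fewer cells of a type and less RNA per cell cannot be told apart.

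**Figure D2:**
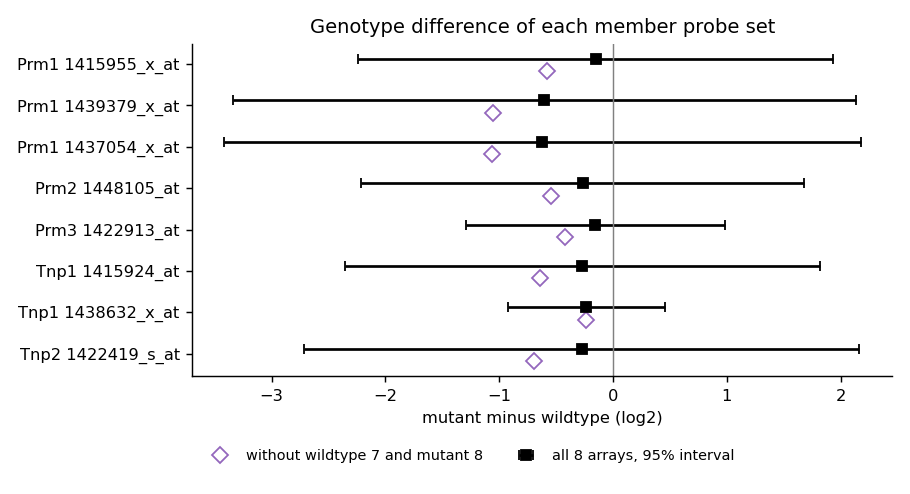
Log2 difference, mutant minus wildtype (x axis), of each member probe set (y axis). Squares with bars are the limma difference and its 95% interval over all 8 arrays, and diamonds the difference without wildtype replicate 7 and mutant replicate 8, shown with no interval. All bars cross 0, and each diamond lies below 0.

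The pair at the top stood apart on the whole array as well. The first principal component held 44.9% of the variance and placed wildtype replicate 7 at 0.190 and mutant replicate 8 at 0.18, with the other arrays from -0.117 to -0.0146. Their RNA control probe sets were also at the high end. The log2 difference between the 3′ and 5′ Gapdh probe sets was 0.31 and 0.33 on these arrays and 0.041 to 0.217 on the others, and for beta-actin 1.13 and 1.03 against 0.747 to 1.03. Array medians lay between 6.40 and 6.45. The part of RNA quality in the members' levels was not tested.

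Wildtype replicate 7 lay above the mean of the other 4 wildtype arrays by 3.19 for Prm1, 3.21 for Prm2, 3.29 for Tnp1, 3.90 for Tnp2 and 1.57 for Prm3 on the log2 scale. Mutant replicate 8 lay above the mean of the other 2 mutant arrays by 3.21 for Prm1, 2.76 for Prm2, 3.09 for Tnp1, 3.60 for Tnp2 and 1.74 for Prm3. The departure was thus of similar size in both genotypes, with Tnp2 first and Prm3 last in each among these main probe sets. That order does not hold for the further probe sets. Those of Prm1 departed by 4.41 and 3.97 (1437054_x_at) and by 4.31 and 3.93 (1439379_x_at), more than Tnp2, and that of Tnp1 (1438632_x_at) by 1.21 and 0.74, less than Prm3. These departures were described and not tested, because the pair was singled out by its values. Between the 2 arrays, mutant replicate 8 was below wildtype replicate 7 for each gene, by a log2 difference of -0.57 for Prm1, -1.0 for Prm2, -0.25 for Prm3, -0.84 for Tnp1 and -1.0 for Tnp2.

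Without this pair, 4 wildtype and 2 mutant arrays remained, and no member was called. The wildtype means were then 8.93 ± 0.51 for Prm1, 8.19 ± 0.40 for Prm2, 8.90 ± 0.38 for Prm3, 8.99 ± 0.55 for Tnp1 and 7.69 ± 0.55 for Tnp2 (SD, n = 4), and the mutant means 8.34, 7.65, 8.48, 8.35 and 6.99 in the same order (n = 2). The differences were -0.58 for Prm1, -0.54 for Prm2, -0.42 for Prm3, -0.64 for Tnp1 and -0.69 for Tnp2. The adjusted p from limma ran from 0.761 to 0.814 over these genes, and 0 of 45101 probe sets were called (0%). At an unadjusted p of 0.05, 2 of the 5 main probe sets, those of Prm2 (0.0386) and Tnp2 (0.0360), were lower in mutant in limma, beside 3.05% of all probe sets lower and 6.55% in either direction. Both further Prm1 probe sets were also under it in limma (0.0401 and 0.0492), and their differences were -1.05 and -1.06. The pair was singled out by its values, so these unadjusted p-values follow a choice made on the same levels. These probe sets also ranked the arrays in nearly the same order, so they do not count as separate results beside the shares of all probe sets. The groups still overlapped for all 8 probe sets, while 14.9% of all probe sets did not overlap (6.97% of all were lower in mutant without overlap), and an exact permutation test of 6 arrays cannot go below 0.133 (Prm2 and Tnp2, 0.267).

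The main probe sets of Prm1, Prm2 and Tnp1 changed nearly in step from array to array. The Prm1 level minus the Tnp1 level was 0.01, -0.16, 0.00, -0.11 and -0.16 on wildtype replicates 1, 2, 4, 6 and 7 and 0.05, -0.06 and 0.11 on mutant replicates 3, 5 and 8. This difference ranged over 0.27, while the genes themselves spanned 3.98 and 4.09. Only its variation over arrays is read here, since its size depends on the brightness of the probes. For Prm2 minus Tnp1 the values were -0.57, -0.89, -0.88, -0.87 and -0.88 in wildtype and -0.65, -0.76 and -1.04 in mutant, a range of 0.47. The highest of these values were on wildtype replicate 1 and mutant replicate 3, and the lowest was on mutant replicate 8. The further Prm1 probe sets did not keep in step with Tnp1. For 1437054_x_at minus Tnp1 the high pair had -0.29 (wildtype replicate 7) and -0.95 (mutant replicate 8), against -2.33 to -1.10 on the others, a range of 2.04. For 1439379_x_at it was -0.37 and -0.97 against -2.17 to -1.10, a range of 1.80.

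Among the main probe sets, Tnp2 and Prm3 departed from Tnp1 in opposite directions on the high arrays. Tnp2 minus Tnp1 was -1.26, -1.46, -1.21, -1.28 and -0.69 in wildtype and -1.40, -1.30 and -0.85 in mutant, and the 2 highest values belonged to the pair. Prm3 minus Tnp1 was 0.19, -0.31, -0.19, -0.06 and -1.81 in wildtype and -0.38, 0.65 and -1.22 in mutant, with the 2 lowest values on the same pair. Probe sets of a single gene differed as much. The further Tnp1 probe set minus the main one was -6.32 and -6.19 on the pair and -4.47 to -3.68 on the others, a range of 2.64 against 2.46 for Prm3, and the further Prm1 probe sets went the way of Tnp2. How far these differences belong to the genes or to the probes was not tested. The group means of Prm3 minus Tnp1, -0.43 ± 0.79 (SD, n = 5) and -0.32 ± 0.94 (SD, n = 3), overlapped.

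**Figure D3:**
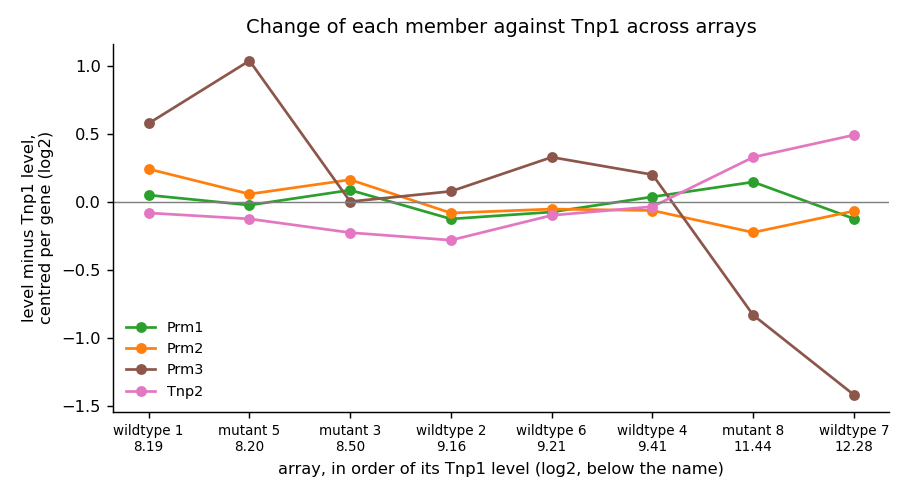
Level of the main probe set of each gene minus that of Tnp1, centred on its mean over the 8 arrays (y axis, log2), on the arrays ordered by their Tnp1 level, printed below each name (x axis). Prm1 and Prm2 stay near 0 throughout, while at the right, on mutant replicate 8 and wildtype replicate 7, Prm3 drops and Tnp2 climbs.

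The regulators of these genes varied less than the members over the same arrays, and Fhl5 varied most among them. Of 9 transcription regulators known to act on protamine and transition protein genes, 4 were higher and 5 lower in mutant, with a median difference of -0.015, and none was called. Their median departure on the pair was 0.17 on both arrays, beside 3.21 and 3.09 for the members. Still, 4 of the 9, Crem, Fhl5, Gtf2a1l and Nr6a1, stood above all other arrays on both arrays of the pair, beside 8.60% of all probe sets. Fhl5, the coactivator of CREM in spermatids, stood at 8.34, 8.57, 8.67, 8.66 and 10.14 in wildtype and at 7.98, 8.25 and 9.93 in mutant. It lay 1.58 and 1.81 above the other arrays of its genotype on wildtype replicate 7 and mutant replicate 8, close to Prm3. Crem stood at 10.65, 10.64, 10.63, 10.62 and 10.80 in wildtype and 10.52, 10.72 and 10.83 in mutant, and its 4 probe sets differed between genotypes by -0.10 to 0.10. Over these probe sets Crem departed by 0.02 to 0.17 on wildtype replicate 7 and by -0.04 to 0.21 on mutant replicate 8. Gtf2a1l stood at 12.58 and 12.52 on the pair and at no more than 12.44 on the other arrays. Crem makes activator and repressor isoforms, which were not separated here. Nr6a1 departed by 0.28 and 0.23 on its main probe set, and over its 5 probe sets by -0.19 to 0.55 on wildtype replicate 7 and by -0.16 to 0.79 on mutant replicate 8. Kdm3a, a histone demethylase that acts at the Prm1 and Tnp1 promoters, ranged from 11.89 to 12.08. Tbpl1, a TBP relative needed in round spermatids, spanned 0.16. Over all 8 arrays Taf7l, a testis TFIID subunit, was the one regulator under an unadjusted p of 0.05 in limma. Its difference was 0.21 (SE 0.09) with an adjusted p of 1.0. Without the pair, which was singled out by its values, 2 were under it in limma. These were Fhl5 at -0.45 (unadjusted p 0.0042) and Taf7l at 0.28 (0.016), both with an adjusted p of 0.751.

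Most genes for proteins that store or translate spermatid mRNA, or that modify or carry protamines, also varied little at their main probe sets. Of 7 measured RNA-binding genes of 8 listed, 5 were higher and 2 lower in mutant with a median difference of 0.039, none called, and none stood above all other arrays on both arrays of the pair. Ddx25, an RNA helicase of spermatids, ranged from 12.82 to 12.94. Over the 6 probe sets of Elavl1 the departure ran from -0.49 to 0.43 on wildtype replicate 7 and from -0.53 to 0.08 on mutant replicate 8. Of 8 genes for modification and import, 2 were higher and 6 lower with a median of -0.019, none called. Camk4, whose kinase phosphorylates protamine 2, departed most, at 6.67, 6.94, 7.03, 7.03 and 7.89 in wildtype and 6.84, 6.48 and 7.54 in mutant. That held for its main probe set, while over its 5 probe sets the departure of wildtype replicate 7 ran from -0.26 to 0.97 and that of mutant replicate 8 from 0.10 to 0.88. Hspa2, the chaperone of transition proteins, ranged from 13.31 to 13.44.

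Among the genes for histone replacement, 2 of the 3 measured linker histones of testis were higher on the same arrays as the members. Of 11 measured genes of 15 listed, 2 were higher and 9 lower in mutant with a median of -0.016, none called, and 6 stood above all other arrays on both arrays of the pair. H1f7, a linker histone of elongating spermatids, stood at 7.06, 7.67, 8.02, 7.84 and 9.44 in wildtype and at 7.29, 7.38 and 9.12 in mutant. H1f9, another spermatid linker histone, stood at 10.54, 10.73, 10.81, 10.83 and 11.98 in wildtype and at 10.15, 10.66 and 11.71 in mutant. H1f6, the testis linker histone that spermatocytes already make, did not share this, with departures of -0.17 and 0.34 and wildtype replicate 7 the lowest wildtype array at 6.07. Cdyl, a chromodomain protein, stood at 7.66, 7.79, 7.87, 7.85 and 9.58 in wildtype and at 7.54, 7.52 and 8.95 in mutant on its main probe set. Its 3 probe sets did not behave alike, with departures of wildtype replicate 7 from 0.02 to 1.78. Chd5, a chromatin remodeler of spermatids, departed by 0.47 and 0.69. Phf7, a histone ubiquitin ligase, stayed between 13.46 and 13.66, and Kat5, an acetyltransferase of histone H4, was below the other arrays of its genotype with departures of -0.13 and -0.41.

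At their main probe sets, all 12 other late spermatid transcripts stood above all other arrays on both arrays of the pair. The 5 members did so too, compared with 3878 probe sets of the whole array (8.60%). Over the 5 probe sets of Oaz3 the departure ran from -0.17 to 1.36 on wildtype replicate 7 and from -0.05 to 1.45 on mutant replicate 8. The median departures of the late spermatid list, 1.18 and 1.30 in the same order of arrays, were less than those of every member at its main probe set. The widest were Cabs1, a calcium-binding protein of spermatids, at 2.88 and 2.48, and Hmgb4, an HMG-box protein of spermatids, at 2.39 and 2.21. The gene for the tail fibre protein ODF1 departed by 0.95 and 1.09, and that for the tail sheath protein AKAP4 by 1.25 and 1.26. The pair was singled out by its values and the list was chosen with earlier results known. The count and the departures were therefore described and not tested. Of the 12, 2 were higher and 10 lower in mutant with a median of -0.10, none called. Without the pair, all 12 were lower with a median of -0.31, beside -0.0024 over all probe sets, and again none was called. The mean level of the list was then 7.97 on mutant replicate 3 and 8.24 on mutant replicate 5. The latter lay within the range of wildtype replicates other than 7, 8.18 to 8.53.

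Of 7 early spermatid and acrosome transcripts, 4 stood above all other arrays on both arrays of the pair: Acrv1, Spaca1, Izumo1 and Catsper1. Acrv1, an acrosomal vesicle protein, departed by 1.52 and 1.71. Acr, the acrosomal protease that is already transcribed in spermatocytes, stayed between 11.11 and 11.25. The remaining genes of the list did not follow the pair either. Spata16 departed by -0.08 on wildtype replicate 7 and -0.19 on mutant replicate 8, and Dpy19l2 by 0.28 and -0.34. The list had 1 gene higher and 6 lower in mutant with a median of -0.059, none called. Without the pair 3 were higher and 4 lower, with a median of -0.28 and again none called. The mean level of the list was 9.39 on mutant replicate 3 and 9.91 on mutant replicate 5, beside 9.66 to 9.92 on wildtype replicates other than 7.

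**Figure D4:**
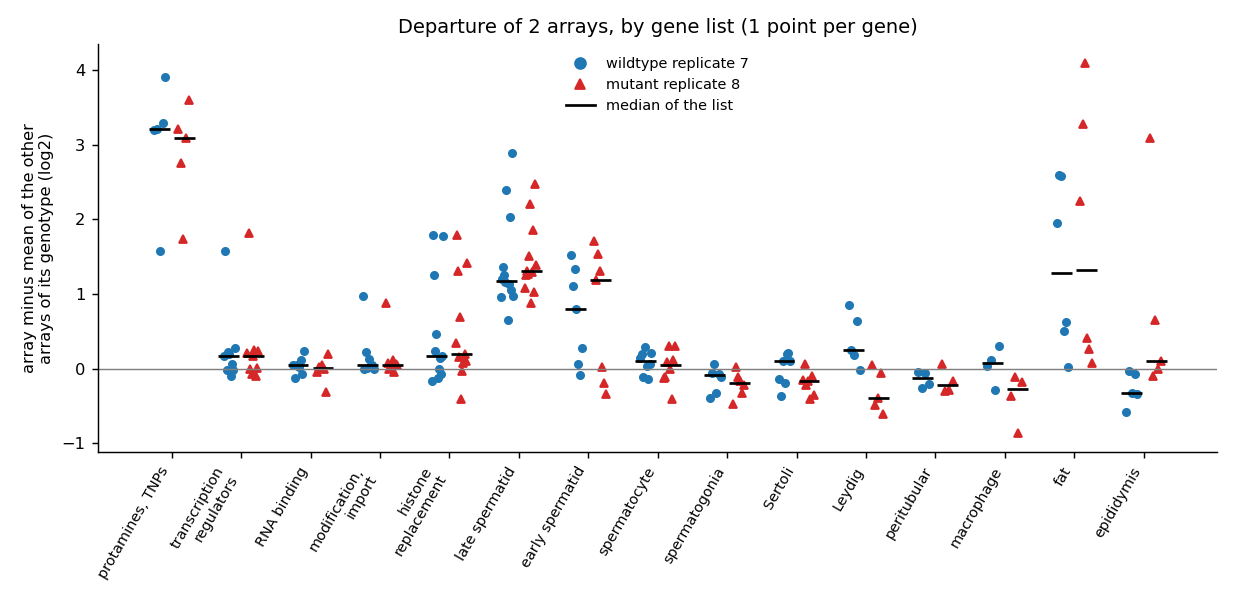
Level on wildtype replicate 7 (circles) and mutant replicate 8 (triangles) minus the mean of the other arrays of the same genotype (y axis, log2), 1 point per gene at its main probe set, by gene list (x axis); black lines are list medians. The members have the highest medians, 3.21 and 3.09, followed by the fat and late spermatid lists, and most other lists lie near 0.

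Markers of earlier germ cells and of most somatic cells did not share the profile. Of 8 spermatocyte markers, 3 were higher and 5 lower in mutant with a median difference of -0.071. Ldhc, the germ cell lactate dehydrogenase, ranged only from 14.31 to 14.41, near the array maxima of 14.88 to 14.91. Ccnb3 ranged most in this list, from 5.79 to 6.76, and departed by -0.14 on wildtype replicate 7 and -0.41 on mutant replicate 8. Of 6 spermatogonia markers, 5 were higher and 1 lower with a median of 0.15, and both arrays of the pair were below the others in the median, by -0.09 and -0.19. For Sertoli cells 6 were higher and 1 lower (median 0.071), for Leydig cells 4 and 1 (0.14), for peritubular muscle cells 3 and 1 (0.079) and for macrophages 4 and 0 (0.019). Without the pair the medians of several of these lists were further above 0, opposite to the members. All 5 Leydig cell markers were then higher in mutant (median 0.32), as were all 6 spermatogonia markers (0.19), all 4 macrophage markers (0.13) and 6 of 7 Sertoli cell markers (0.14). Only 2 mutant arrays remained, and the Leydig difference came mostly from mutant replicate 3. The mean Leydig level was 9.46 there, 8.96 on mutant replicate 5 and 8.86 to 8.90 on wildtype replicates other than 7. Cyp17a1 was at 11.92 on mutant replicate 3 and at 10.95 on mutant replicate 5, below every wildtype array. The part of these other cell types in the members' differences was not tested. None of these markers was called in either comparison, and apart from the spermatocyte enzyme gene Pgk2 none stood above all other arrays on both arrays of the pair.

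Fat cell transcripts were the exception among the somatic lists. Of 6 measured markers, 5 stood above all other arrays on both arrays of the pair, and their mean level was 6.94 and 6.86 there against 5.09 to 5.73 on the others. Cfd, the fat serine protease adipsin, stood at 5.94, 6.29, 6.41, 6.79 and 8.94 in wildtype and at 5.94, 5.82 and 9.15 in mutant. Adipoq, which encodes adiponectin, stood at 5.99, 6.53, 6.61, 6.62 and 8.39 in wildtype and at 5.55, 6.49 and 8.27 in mutant. Cidec and Plin4 cleared the others by little, at 3.98 and 5.80 on mutant replicate 8 against up to 3.90 and 5.65 outside the pair. Over the 4 probe sets of Car3 the departure ran from 0.46 to 2.58 on wildtype replicate 7 and from 0.29 to 4.10 on mutant replicate 8. Between genotypes 2 fat markers were higher and 4 lower (median -0.080), and 1 and 5 without the pair (median -0.27), none called. Lep, the gene of the fat hormone leptin, stayed between 3.82 and 4.05. Fat markers and members thus moved on the same arrays, and the part of one in the other was not tested. Of 5 epididymis markers 3 were higher and 2 lower in mutant (median 0.086), and without the pair 2 and 3 (-0.26), none called. Among them, Crisp1 was at 5.82 on wildtype replicate 1 and 6.38 on mutant replicate 8, and between 3.17 and 3.34 elsewhere.

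The genes beside the members on chromosomes 16 and 1 did not follow them. Of 9 measured neighbours of 10 listed, 4 were higher and 5 lower in mutant with a median of -0.0030, none called. Their median departures on the pair were -0.05 and -0.009. Socs1, a cytokine signalling inhibitor close to Tnp2, stood at 6.33, 6.22, 6.29, 6.59 and 6.23 in wildtype and at 6.30, 6.37 and 6.49 in mutant.

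The genes whose profile over the 8 arrays was most like that of the members were Cabs1, Calr3, Fam71b, Cfd and Tepp. Likeness was the root mean square difference from the mean centred log2 profile of the 5 main probe sets. It was ranked over 20659 genes, each taken at its closest probe set and not at its main one. It was 0.185 for Cabs1, 0.219 for Calr3, a chaperone of the germ cell endoplasmic reticulum, 0.274 for Fam71b, 0.301 for Cfd and 0.303 for Tepp. Calr3 stood at 4.79, 5.26, 5.47, 5.47 and 7.90 in wildtype and at 4.67, 4.85 and 7.18 in mutant. The members' own values, which are low in part because each enters the mean, were 0.111 for Prm2, 0.129 for Tnp1, 0.139 for Prm1, 0.349 for Tnp2 and 0.611 for Prm3. The main probe sets of Tnp2 and Prm3 had larger values than these 5 other genes, but the 5 were picked as the closest of 20659. The measure also counts the size of a change, and the span was 4.70 for Tnp2 and 2.36 for Prm3. One of the 5 belonged to the fat list.

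The 2 lower mutant arrays ordered the members other than Prm3 differently from most late spermatid transcripts. Mutant replicate 5 was below mutant replicate 3 by a log2 difference of -0.41 for Prm1, -0.40 for Prm2, -0.30 for Tnp1 and -0.20 for Tnp2, and above it by 0.74 for Prm3. Of the late spermatid transcripts 10 of 12 were higher on mutant replicate 5, with a median of 0.43, and 9 of 12 had their lowest level of all arrays on mutant replicate 3. Tssk6, a testis serine kinase, and Spem1 were the other two, at -0.57 and -0.11. Of the early spermatid transcripts 4 of 7 were higher on mutant replicate 5, with Acrv1 1.51 and Spaca1 1.07 higher. H1f9 was 0.50 higher. The direction was not particular to spermatid lists, as 8 of 9 transcription regulators and 7 of 8 spermatocyte markers were higher on mutant replicate 5. For Sertoli cell markers it was 2 of 7 and for Leydig cell markers 0 of 5. Among the genes most like the members, Tepp and Cfd were lower on mutant replicate 5, and Cabs1, Calr3 and Fam71b were higher. Over all probe sets the median was -0.0034, with 49.1% higher. With 1 array on each side this difference has no replicate check.

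**Figure D5:**
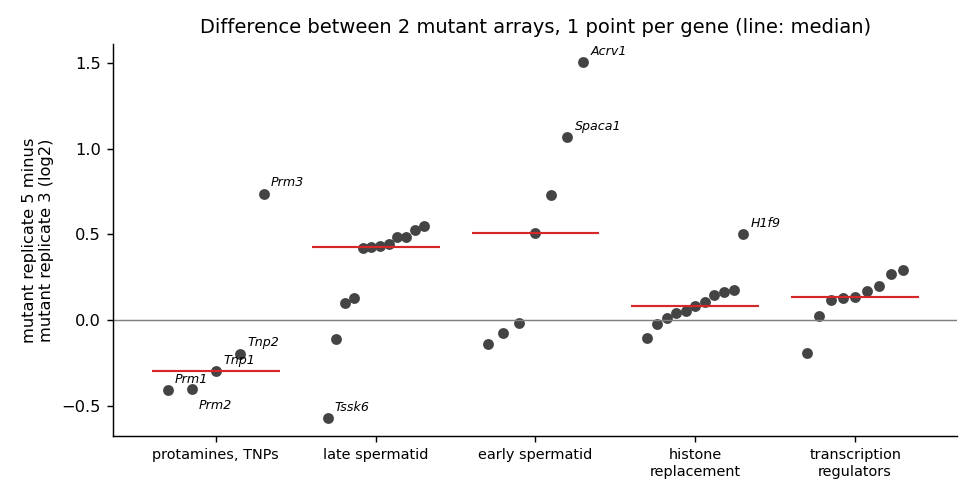
Level on mutant replicate 5 minus that on mutant replicate 3 (y axis, log2), 1 point per gene at its main probe set, by list (x axis); red lines are list medians. Prm1, Prm2, Tnp1 and Tnp2 lie below 0 and Prm3 at 0.74, while 10 of 12 late spermatid genes lie above 0.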

How the data were processed

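Total RNA of testis was labelled and hybridised by the authors, 1 array per sample. The deposited table holds log2 levels that the authors made with RMA, which corrects background and normalises across arrays. RMA draws arrays to a shared distribution, so levels are relative within the set. The other deposited tables, and further columns, hold the authors' own fold changes and p-values and were not used. Per the labels, groups and replicate numbers came from sample titles.

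No filter was applied to the deposited levels. All 45101 probe sets were fitted in limma 3.58.1 under R 4.3.3 (lmFit, eBayes), mutant minus wildtype, two-sided, with Benjamini-Hochberg adjustment at 0.05. Member differences were also tested by exact permutation. The fit was tested on simulated data. Python 3.11.15 served for the rest (scipy 1.17.1, pandas 2.3.3, numpy 2.4.6, matplotlib 3.10.9). The main probe set of a gene is the one of highest mean level, taken among those with no suffix for cross-hybridisation if there are any. Text names every member probe set, list genes with the widest or narrowest range or a known role, and the 5 genes most like the members. Symbols were updated through Entrez IDs with RefSeq (GRCm38.p6), found for 33571 of the 38810 probe sets that carry an ID. The promoter windows come from the same source. Members and lists were chosen with earlier results of these data known. Ybx2, H1f1, H2bc1, H2ac1, Rnf8, Clu, Insl3, Plin1 and Rpl37a had no probe set of their own. The number of arrays limits the precision.

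Alternatives were leaving out each array or the pair of wildtype replicate 7 and mutant replicate 8, that pair as a block, median centring, repeated quantile normalisation, an intensity trend with robust prior, array weights, only probe sets above the median level, other probe sets, a linear scale and a one-way comparison.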

Additional observations from a re-analysis of the deposited data

Results flagged for a closer look

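In the wildtype group, single arrays stood far from the other 4 by the ratio of the gap to the whole range. For Prm2 (1448105_at), wildtype replicate 7 was at 11.40 with the next array at 8.53, a ratio of 0.758. For Tnp2 (1422419_s_at) it was at 11.59 with the next at 8.20, a ratio of 0.728. The other 6 member probe sets did not pass the limit for 5 samples, although the same array was their highest.

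The mean level of several lists passed it too, with wildtype replicate 7 highest: the transcription regulators (10.95 against 10.69, ratio 0.913), the modification and import genes (12.24 against 12.08, 0.759), the histone replacement genes (10.04 against 9.60, 0.797), the late spermatid transcripts (9.83 against 8.53, 0.786), the Leydig cell markers (9.26 against 8.90, 0.903) and the fat cell markers (6.94 against 5.73, 0.728). For the epididymis list wildtype replicate 1 was highest (5.79 against 5.29, 0.721). Such a mean can rest on few genes. The median departure of wildtype replicate 7 was 0.17, 0.045, 0.17, 1.18, 0.24 and 1.29 for the first 6 lists in this order. Fhl5 of the regulators departed by 1.58, Camk4 of the modification genes by 0.97 and Cyp17a1 of the Leydig markers by 0.86. In the epididymis list Crisp1 was at 5.82 on wildtype replicate 1 and at 3.17 to 3.29 on the other wildtype arrays. In all, 9 of 23 measures passed, where chance passes about 1 in 20 (1.15 of 23). The measures share arrays and the lists were chosen with earlier results known, so this count is not a test of an excess. The 3 mutant arrays are too few for this check.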

How the results depend on the processing

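The count of called probe sets stayed at 0 under 15 of 16 alternatives and was 1, no member, with wildtype replicate 7 and mutant replicate 8 as a block, a block taken from expression values. Limma called 1564 probe sets at an unadjusted p of 0.05, and the one-way comparison 0 adjusted and 1708 unadjusted. No member was called under any alternative, with a lowest adjusted p of 0.761. Leaving out each array gave differences from -1.22 to 0.49 for Prm1, -1.19 to 0.38 for Prm2, -0.73 to 0.32 for Prm3, -1.30 to 0.39 for Tnp1 and -1.48 to 0.50 for Tnp2. The sign turned without wildtype replicate 7 (Prm1 0.49, Prm2 0.38, Prm3 0.16, Tnp1 0.39, Tnp2 0.50), without mutant replicate 3 (0.28, 0.092, 0.32, 0.17, 0.27) and, except for Prm3, without mutant replicate 5 (Prm1 0.48, Prm2 0.29, Tnp1 0.32, Tnp2 0.37). Without mutant replicate 8 they were the lowest, from -0.73 to -1.48. These alternatives differ only in the arrays used. The block gave -0.58, -0.67, -0.37, -0.70 and -0.78 for Prm1, Prm2, Prm3, Tnp1 and Tnp2. For the lists, in an alternative without the pair added after the data were seen, the median turned for the epididymis markers (-0.26) and the neighbouring genes (0.045), and it moved by over 1.5 times for the late (-0.10 to -0.31) and early spermatid (-0.059 to -0.28), Leydig (0.14 to 0.32), Sertoli (0.071 to 0.14), macrophage (0.019 to 0.13), fat (-0.080 to -0.27), regulator (-0.015 to -0.034), modification (-0.019 to -0.032) and histone replacement (-0.016 to -0.071) lists. The study calls the genotypes littermates, but the labels give no litter, so no paired analysis was possible.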
